A study of Homo sapiens with 6 samples.

Results

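RNA-seq of PK-1 cells, an established human cell line of pancreatic ductal adenocarcinoma (PDAC), was used to compare cells treated for 24 h with RARγi-2 (MM11253), an inhibitor of retinoic acid receptor γ, with control cells. Each condition had 1 library. The comparison covers every entry above the floor of the values in at least 1 of both libraries, which left 14028 of the 53826 listed entries. The question was which genes change when signaling through this receptor is blocked. The series also holds a PK-1 library treated with RARγi-1 (LY2955303), another inhibitor of the receptor, which is set against the same control library, and 3 libraries of Panc-1, a second PDAC line, kept as the control or treated with either inhibitor. The control is labelled only as control, and neither its vehicle nor the doses for RNA-seq are given in the sources used here. The title of the treated library names RARγi-2, whereas its treatment entry reads RARγi-1; the library was assigned by its title. No genotype or transgene separates the groups in PK-1, and whether other cultures would respond alike was not tested.

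Values are TPM, the transcript abundance after each library is brought to an equal sum. They were deposited on a log2 scale with everything under 1 TPM raised to 1 TPM, which is called the floor. Fold changes are log2 of (TPM + 1) after treatment over (TPM + 1) in the control, so that 1 stands for a 2-fold difference. The added 1 understates the difference of weak transcripts, and a fold change to or from the floor is a lower limit. Since each condition is a single library, the differences could not be set against replicates, and p-values are left out. TPM keeps no read number, so the depth is unknown. Variation was gauged by the robust spread between the RARγi-2 and RARγi-1 libraries of PK-1. It also holds real differences between the treatments, and amounted to 0.41 on the log2 scale for a fold change over the 11268 entries with at least 5 TPM. It ran from 0.25 at 1000 TPM and above to 0.44 between 5 and 10 TPM.

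Retinoic acid receptors bind DNA as partners of retinoid X receptors, hold target genes silent through corepressors without ligand and activate them with it. In dividing cells, E2F factors released from the retinoblastoma family switch on the genes of DNA replication, and a later program led by B-MYB and FOXM1 switches on those of mitosis. Cells whose endoplasmic reticulum (ER) or amino acid supply is disturbed answer through the unfolded protein response and through ATF4, which raise chaperones, degradation factors, amino acid enzymes and transporters. NRF2 drives a further program against oxidative damage.

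The cells kept an epithelial profile in both libraries. KRT18 was at 6408 TPM in the control and 4350.1 TPM in the treated library, KRT8 at 5967 and 3779 TPM, KRT19 at 3711 and 2646 TPM and EPCAM at 578 and 497 TPM. CDH1, which encodes E-cadherin, was at 170.1 TPM in the control and 385 TPM after treatment. Among the ductal markers, MUC1 was close to the floor with 1.02 and 2.45 TPM. Of 7 immune markers 2 lay above the floor, CD68 with 19.8 and 62.6 TPM and LYZ with 4.15 and 6.78 TPM, while PTPRC, the pan-leukocyte gene, was at the floor. None of 7 endothelial and stromal markers and 1 of 9 acinar and endocrine markers lay above it, PRSS1 with 1.06 and 21.2 TPM.

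Of the 14028 entries, 1701 (12.1%) were upregulated more than 2-fold and 1762 (12.6%) downregulated more than 2-fold, and these percentages are the background for the gene groups below. The other 10565 lay within 2-fold. The median log2 fold change was 0.03, with quartiles of -0.52 and 0.54. Larger differences were split about evenly, with 94 entries upregulated and 111 downregulated more than 8-fold. Of the entries, 12609 were above the floor in both libraries, 879 only in the treated and 540 only in the control library. The floor makes it impossible for the 1197 entries that reached no more than 2 TPM to pass the threshold, and none did. Among the 177 entries above 1000 TPM, 20.9% were upregulated and 11.3% downregulated. Protein-coding genes made up 1484 of the upregulated and 1627 of the downregulated entries.

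**Figure D1:**
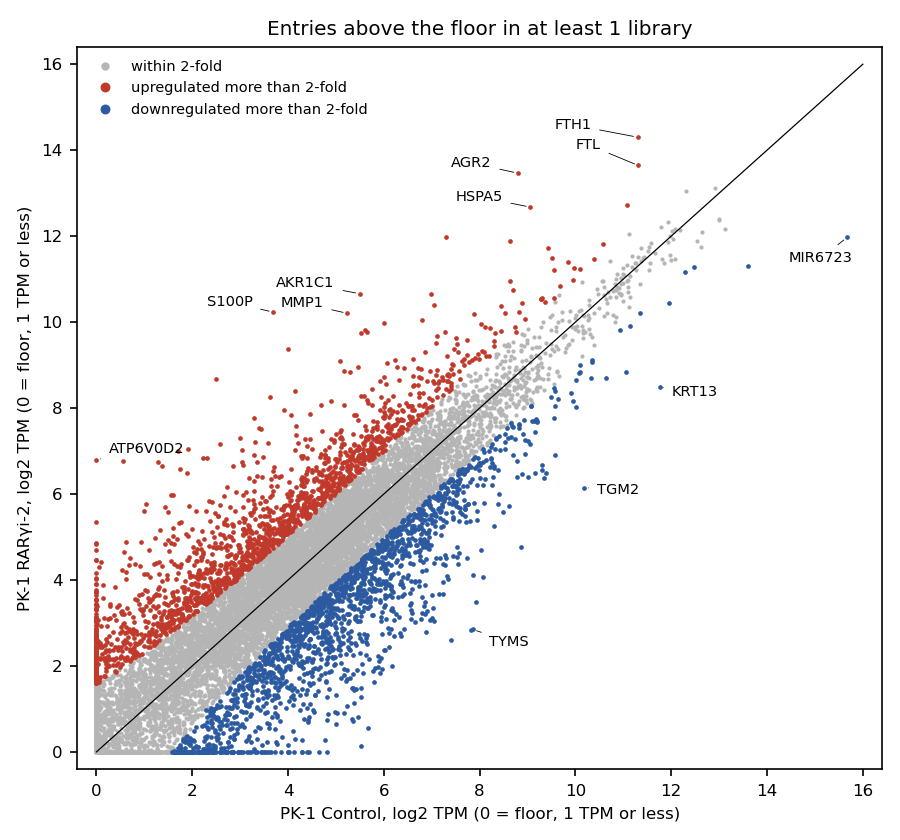
Each point is 1 of the 14028 entries, with its log2 TPM in the PK-1 control library on the x axis and in the RARγi-2 library on the y axis, and 0 marking the floor. Red points were upregulated and blue points downregulated more than 2-fold; FTH1, FTL, AGR2 and HSPA5 stand at the top of the treated library, and MIR6723, the most abundant control entry, lies far under the diagonal.

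The composition of the library moved with treatment. FTH1 and FTL, the heavy and light subunits of ferritin, which stores iron, were at 2516 and 2546 TPM in the control, where they ranked 42 and 40. In the treated library they were the 2 most abundant entries with 20201 and 12793 TPM. AGR2, a protein disulfide isomerase of the ER that mucus-making epithelia need, came next: it went from 445 TPM, rank 304, to 11302 TPM, rank 3. HSPA5, the main ER chaperone, moved from rank 240 to rank 7, with 532 TPM in the control and 6542 TPM in the treated library. Further large gains in TPM were those of MT2A, a metallothionein (2166 and 6727 TPM), the secreted siderophore carrier LCN2 (158 and 4016 TPM), the autophagy receptor SQSTM1 (398 and 3778 TPM) and ANXA1, a phospholipid-binding protein (692 and 3393 TPM). Apart from the mitochondrial-copy entries described next, the losses in TPM were led by the keratins KRT7 (5663 and 2470.4 TPM) and KRT13 (3457 and 358 TPM). The glycolysis gene GAPDH (8194 and 5335 TPM) and the ribosomal protein gene RPS2 (8225 and 5390 TPM) were also among the largest. So were the cytoskeleton genes ACTB (6268 and 3430.5 TPM) and TUBA1B (3967 and 1384 TPM).

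The largest losses in TPM were of another kind. MIR6723, the most abundant entry of the control with 52172 TPM, was at 4013 TPM after treatment. In the GENCODE 29 annotation (hg38) it lies on the minus strand of chromosome 1 at 632325 to 632413 and overlaps MTCO1P12, a nuclear pseudogene of a mitochondrial gene. MIR4461, at chromosome 5, 134928039 to 134928112 on the plus strand, overlaps a similar pseudogene, MTND4LP30, and was at 12374 and 2538 TPM, and MTRNR2L2 followed with 8968 and 4609 TPM. The libraries were made from mRNA, and since the counting method is not given in the sources used here, reads of mitochondrial transcripts and of their nuclear copies cannot be told apart in these entries. MIR6723, MIR4461 and 7 MTRNR2L entries took 8.31% of the control library and 1.53% of the treated library. Rescaling both libraries without these 9 entries lowers every fold change by about 0.10 and gives 1508 upregulated and 2052 downregulated entries. Some list medians given below for this comparison are smaller in size than that shift. They are 0.07 for heat shock chaperones, 0.01 for MHC class I, -0.04 for cytosolic ribosomal proteins, -0.05 for the proteasome and -0.01 for lysosomal genes.

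**Figure D2:**
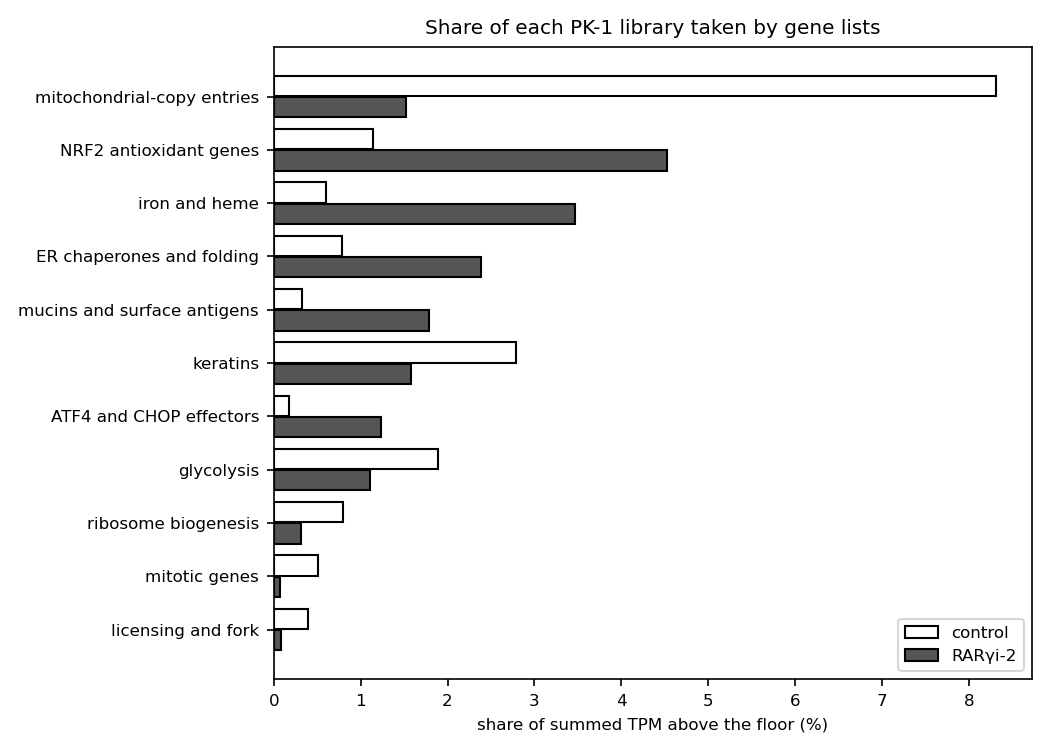
Bars give the percent of the summed TPM of entries above the floor taken by each group of genes, in the control (white) and the RARγi-2 library (dark), on an axis that starts at 0. NRF2 antioxidant genes went from 1.14% to 4.52% and ER chaperones from 0.786% to 2.39%, while the mitochondrial-copy entries went from 8.31% to 1.53%; the NRF2 and iron groups share HMOX1 and also FTH1 and FTL, which make up most of the NRF2 gain, FTH1 with 0.252% and 2.02% and FTL with 0.255% and 1.28% of all TPM.

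Among entries with at least 10 TPM in 1 of both libraries, S100P had the highest fold change. This small calcium-binding protein of pancreatic tumors was at 12.9 TPM in the control and 1202 TPM after treatment, 6.44 on the log2 scale. IGFBP1, a secreted binder of insulin-like growth factors, followed with 5.65 and 406 TPM (5.94). ATP6V0D2, a tissue-restricted subunit of the vacuolar proton pump, was at the floor in the control and at 111 TPM in the treated library. The aldo-keto reductase AKR1C1 (45.1 and 1618 TPM) and the collagenase MMP1 (37.7 and 1179.8 TPM) were among the 15 highest. So were HSPA6, a strictly inducible heat shock protein (2.60 and 100.1 TPM), the lysosomal membrane protein LAMP3 (3.75 and 133 TPM) and the stress keratin KRT16 (3.37 and 96.4 TPM). AKR1C1 has close paralogs whose reads the counting could have split.

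At the other end stood the genes of deoxynucleotide and DNA synthesis. TYMS, thymidylate synthase, was at 231 TPM in the control and 7.21 TPM in the treated library (-4.82). RRM2, the regulatory subunit of ribonucleotide reductase, was at 227 and 7.14 TPM (-4.81). The nuclear lamin LMNB1 (169.5 and 6.08 TPM), topoisomerase TOP2A (243 and 11.1 TPM) and the chromatin remodeler HELLS (41.3 and 1.64 TPM) followed. The 15 lowest also held genes that are not of the cell cycle, among them F3, the coagulation initiator tissue factor (468 and 27.4 TPM), the matricellular protein THBS1 (270.1 and 16.9 TPM) and TGM2, a transglutaminase and classical retinoic acid target (1167 and 70.9 TPM).

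**Figure D3:**
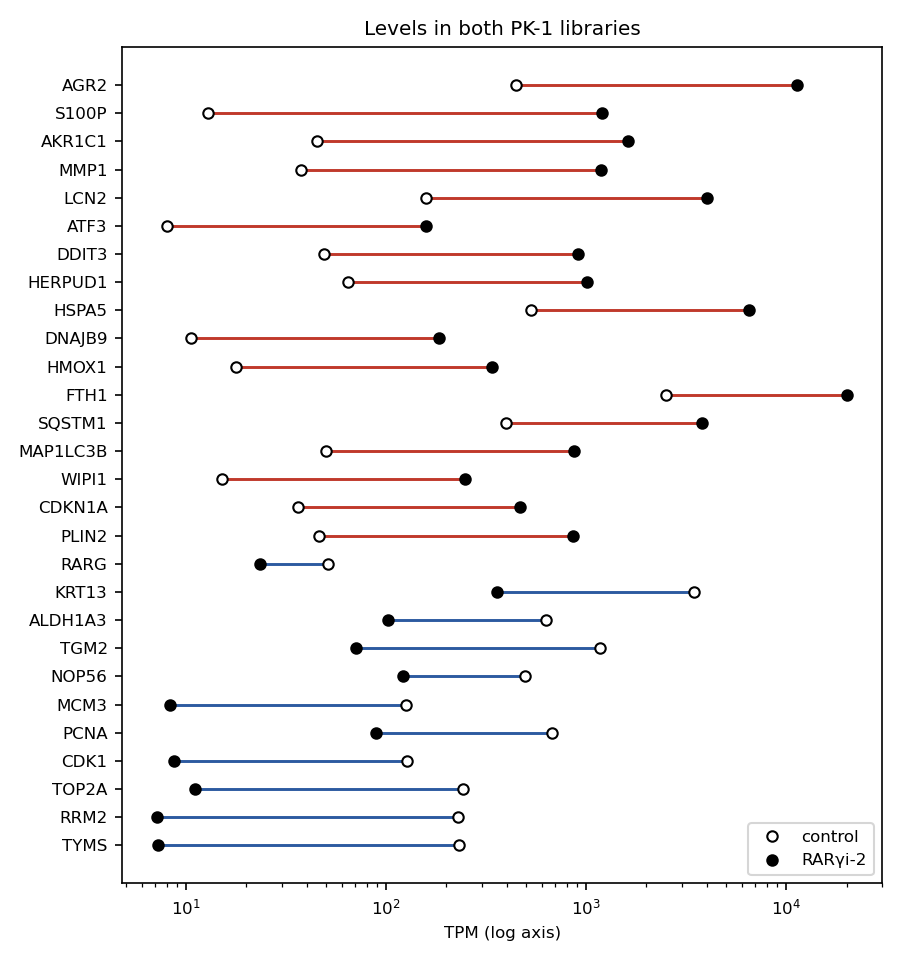
TPM of 28 genes in the PK-1 control (open points) and RARγi-2 library (filled points), 1 library each, on a log axis; red lines mark higher and blue lines lower values after treatment. S100P spans from 12.9 to 1202 TPM and TYMS from 231 to 7.21 TPM.

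Promoters are shown for groups whose regulators read known letters, so that these letters can be seen. The 250 bases before the start were taken from RefSeq (GRCh38.p14), with matches on both strands in capitals and positions counted back from -1, the base before the start. A single start per gene was used, and any other start of the same gene was not searched. HSPA5 (chr9:125241344-125241593, minus strand) holds the ER stress element, CCAAT and CCACG with 9 bases between them, which ATF6 and NF-Y read, at -66. ATF3 (chr1:212565157-212565406, plus strand) holds TGATGNAA, the form of element bound by ATF4 with C/EBP partners, at -191. GCLM (chr1:93909431-93909680, minus strand) holds the antioxidant element of NRF2, TGAC and GCA with 3 bases between them, at -35. MCM3 (chr6:52284743-52284992, minus strand) holds an E2F match, TTTCCCGC or TTTGGCGC, at -174. TOP2A (chr17:40417897-40418146, minus strand) holds TTTGAA or TTTAAA, the cell cycle homology region of mitotic genes, at -194 and -151.
HSPA5: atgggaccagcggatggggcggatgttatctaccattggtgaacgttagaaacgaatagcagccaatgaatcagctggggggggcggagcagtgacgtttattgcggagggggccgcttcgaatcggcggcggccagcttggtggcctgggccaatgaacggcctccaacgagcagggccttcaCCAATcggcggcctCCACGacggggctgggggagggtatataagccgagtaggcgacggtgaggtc
ATF3: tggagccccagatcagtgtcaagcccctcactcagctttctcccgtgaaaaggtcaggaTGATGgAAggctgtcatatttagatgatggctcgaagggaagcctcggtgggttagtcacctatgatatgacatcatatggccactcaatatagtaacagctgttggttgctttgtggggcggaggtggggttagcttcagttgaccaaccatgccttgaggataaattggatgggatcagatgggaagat
GCLM: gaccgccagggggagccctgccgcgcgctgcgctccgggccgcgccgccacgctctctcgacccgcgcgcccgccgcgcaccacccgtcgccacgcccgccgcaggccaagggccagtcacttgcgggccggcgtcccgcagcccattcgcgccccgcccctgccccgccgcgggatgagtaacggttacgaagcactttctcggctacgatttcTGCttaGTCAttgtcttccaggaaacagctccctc
MCM3: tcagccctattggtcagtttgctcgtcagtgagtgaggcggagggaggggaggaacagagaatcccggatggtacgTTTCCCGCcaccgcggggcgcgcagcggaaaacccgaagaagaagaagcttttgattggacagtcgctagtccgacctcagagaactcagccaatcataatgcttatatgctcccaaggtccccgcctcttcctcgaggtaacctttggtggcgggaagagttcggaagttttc
TOP2A: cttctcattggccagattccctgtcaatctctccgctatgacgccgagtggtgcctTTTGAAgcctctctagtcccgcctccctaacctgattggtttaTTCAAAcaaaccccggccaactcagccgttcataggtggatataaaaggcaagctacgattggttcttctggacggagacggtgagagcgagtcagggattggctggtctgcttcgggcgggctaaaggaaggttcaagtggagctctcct

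Counted over the lists, the ER stress element was in 5 of the 26 ER chaperone promoters found in the table, CALR, CANX, CRELD2, HSP90B1 and HSPA5, against 0.0806% of all 27305 promoters and 0.129% of the 10835 promoters of entries above the floor, the background given second below. It was in 0 of 17 promoters of ER-associated degradation. The ATF4 form was in 4 of 20 promoters of ATF4 and CHOP effectors, 4 of 13 of serine and folate enzymes and 2 of 16 of cytosolic tRNA synthetases, against 3.19% and 1.5%. The antioxidant element was in 3 of 26 NRF2 gene promoters, against 2.65% and 2.38%, and in the shorter form that ends in GC in 6 of 26, against 11% and 12.4%. The E2F letters were in 11 of 41 promoters of licensing and fork genes, 1 of 14 of deoxynucleotide synthesis and 2 of 17 of replication-coupled chromatin genes, against 1.96% and 3.04%. The mitotic letters were in 30 of 47 mitotic gene promoters, against 22.1% and 14.1%, and TTTGAA alone in 23 of 47, against 13.6% and 8.31%. CCAAT, which is also the first part of the ER stress element, was in 37 of 47 mitotic promoters, against 33.0% and 35.1%. Some lists, such as those of ATF4 and NRF2, are defined by the regulator whose letters were searched. Every list member with a promoter was counted whatever its fold change, for instance CBR1 (-0.55) among the antioxidant matches. The counts therefore do not measure the response to treatment. A match describes these letters and is not a measured binding site.

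Genes of DNA replication were lower almost throughout. Of 48 genes of origin licensing and the replication fork, 42 were downregulated more than 2-fold and 0 upregulated, with a median log2 fold change of -2.52 against 0.03 over all entries. The helicase loaders and subunits were among the lowest: MCM10, which helps to open the helicase, was at 43.9 TPM in the control and 1.77 TPM in the treated library (-4.02), and MCM3 at 125 and 8.35 TPM (-3.75). ORC1, of the origin recognition complex, was at 37.8 and 2.09 TPM, whereas its partners ORC2, ORC3, ORC4 and ORC5 lay between -0.87 and -0.08. PCNA, the sliding clamp, was at 672 and 89.2 TPM. CDC6, a loader of the helicase, stood apart from its partner CDT1: CDC6 was at 189 and 128 TPM (-0.55), CDT1 at 71.1 and 7.28 TPM (-3.12). RFC1, the large subunit of the clamp loader, was the only member with a higher value (37.2 and 67.6 TPM), while RFC2 to RFC5 were all downregulated.

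Deoxynucleotide synthesis followed with 14 of 16 genes downregulated and a median of -1.82. RRM1, the catalytic subunit of ribonucleotide reductase, was at 260.2 and 26.0 TPM, and TK1, the thymidine kinase of S phase, at 439.6 and 83.7 TPM. The 2 exceptions were RRM2B (10.9 and 13.1 TPM) and TK2 (7.15 and 8.68 TPM), which supply nucleotides outside S phase. In replication-coupled chromatin assembly and methylation, 16 of 19 genes were downregulated, with UHRF1, which guides maintenance methylation, at 55.2 and 3.11 TPM and the methyltransferase DNMT1 at 65.2 and 10.6 TPM. Homologous recombination, Fanconi and mismatch repair genes had 28 of 43 downregulated and a median of -1.46. BLM, a helicase (28.1 and 1.67 TPM), and BRCA1 (28.8 and 5.69 TPM) were among them, while the damage kinase ATM (6.99 and 7.46 TPM) was within 2-fold.

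Mitotic genes had the lowest median of all lists, -2.96. Of 55, 53 were downregulated and the other 2, BUB3 (-0.79) and CDC25B (-0.63), also had negative values. CDK1, the mitotic kinase, was at 128 and 8.73 TPM, its cyclin CCNB1 at 316 and 38.4 TPM, and the kinases AURKB and PLK1 at 151 and 12.8 TPM and at 94.9 and 9.83 TPM. MKI67, the proliferation marker, was at 41.8 TPM in the control and 2.71 TPM in the treated library. Of 13 condensin and cohesin subunits, 10 were downregulated: the condensin gene NCAPG was at 42.6 and 2.74 TPM, while the cohesin subunits STAG1 (-0.01) and STAG2 (-0.25) were near 0.

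Their regulators were less uniform. Of 19 genes of the E2F and retinoblastoma families and their partners, 8 were downregulated and 1 upregulated, median -0.74. The mitotic activators MYBL2, which encodes B-MYB, and FOXM1 were at 63.7 and 5.16 TPM and at 155 and 20.5 TPM. Repressors went both ways. E2F6 (0.63) and E2F7 (0.64) had positive values, whereas E2F8 was at 19.7 TPM in the control and at the floor after treatment (-3.37). RBL1, of the retinoblastoma family, was at 17.2 and 2.13 TPM (-2.54). LIN37, of the complex that keeps cell cycle genes silent in quiescent cells, was at 14 TPM in the control and 40.7 TPM after treatment. Among interphase cyclins and kinases, 11 of 15 were downregulated. CCND1, cyclin D1, was at 135 and 46.7 TPM, its kinase CDK4 at 386 and 157 TPM and CDK2 at 160.1 and 17.1 TPM; CDK7, CCNH and MNAT1, which together form the kinase that activates them, lay between 0.23 and 0.45. CDKN1A, the inhibitor p21, was at 36.1 TPM in the control and 468 TPM in the treated library (3.66), and CDKN1B, the inhibitor p27, at 36.2 and 80.8 TPM (1.13). CDKN2C, a further inhibitor of CDK4 and CDK6, was at 9.89 TPM in the control and at the floor after treatment.

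**Figure D4:**
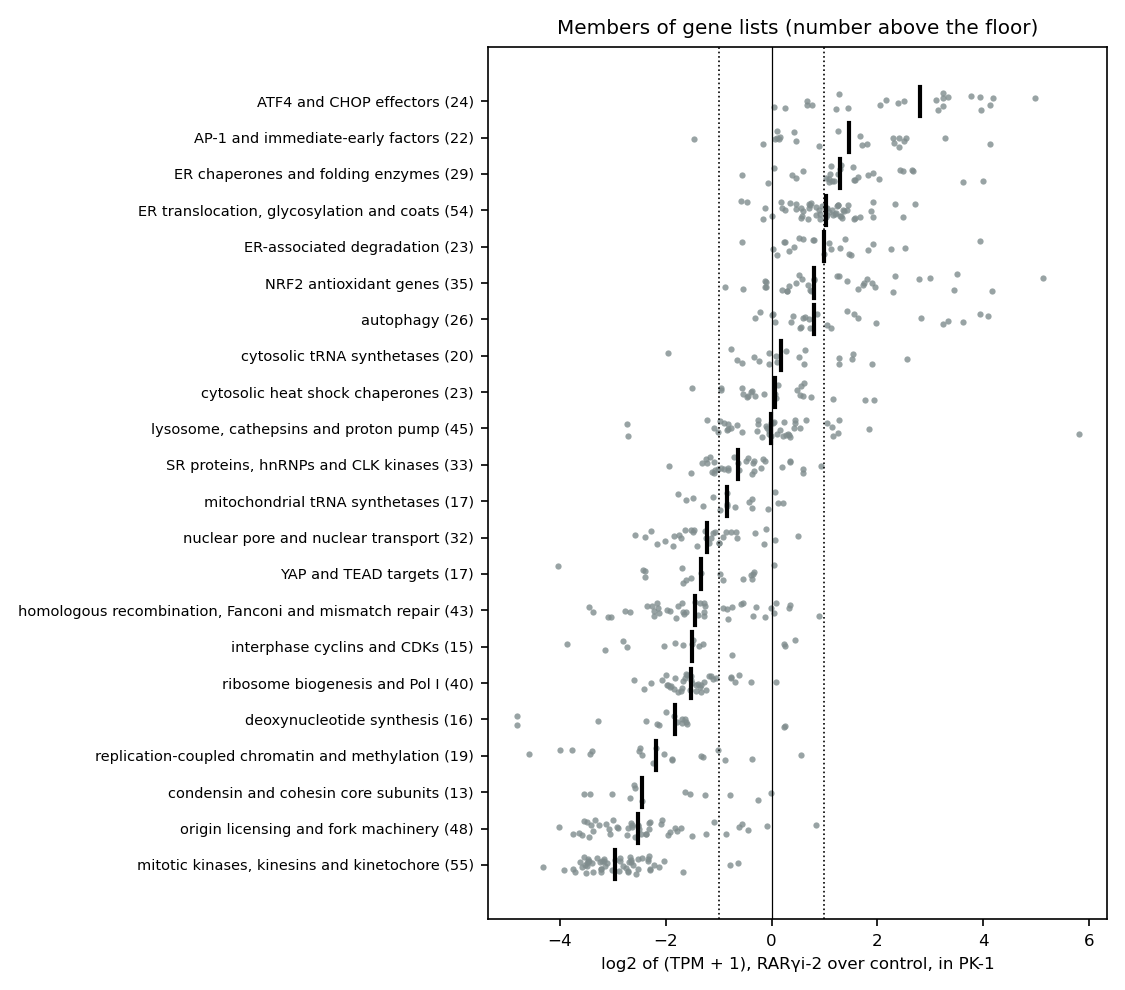
Each grey point is the log2 fold change of 1 gene above the floor in at least 1 PK-1 library, RARγi-2 over control; black bars are list medians, dotted lines mark 2-fold and the number of genes stands in parentheses. Mitotic genes have the lowest median, -2.96, and ATF4 and CHOP effectors the highest shown, 2.80; some genes are in more than 1 list.

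Machinery that supplies growing cells was lower as well, though not all of it. Of 40 genes of ribosome biogenesis and RNA polymerase I, which work in the nucleolus, 34 were downregulated and 0 upregulated, median -1.52. NOP56, of the particles that methylate ribosomal RNA, was at 492 and 122 TPM, and nucleolin, NCL, at 765 and 265 TPM. Nuclear pore and transport genes had 20 of 32 downregulated, with the importin KPNA2 at 341 and 64.1 TPM and RANBP1, a regulator of the transport GTPase RAN, at 333 and 54.4 TPM. Splicing regulators of the SR and hnRNP families had 11 of 33 downregulated, a share above the background of 12.6%, with SRSF7 at 147 and 37.4 TPM. The 85 cytosolic ribosomal protein genes had a median of -0.04, with 2 upregulated and 0 downregulated, and held 16.4% and 16% of the libraries. Proteasome subunits also stayed near 0, with a median of -0.05 and 2 of 37 downregulated, namely PSMB8 and PSMB9 of the immunoproteasome. Translation initiation factors had 1 of 39 past 2-fold in each direction: EIF1, which checks start codons, was at 1004 and 2451 TPM, and EIF2B1, a subunit of the exchange factor for eIF2, at 104 and 50.5 TPM. In the mitochondrial counterparts, 15 of 78 ribosomal protein genes were downregulated (median -0.48) and 4 of 69 respiratory chain subunits (median -0.37). The respiratory chain share lies under the background of 12.6%, although 61 of the 69 subunits had lower values.

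Effectors of ATF4 and of CHOP, a factor that ATF4 induces, had the highest median of the lists with more than 1 gene above the floor, 2.80. Of 24 genes above the floor 19 were upregulated, and all 24 had higher values in the treated library. DDIT3, which encodes CHOP, was at 48.9 TPM in the control and 904 TPM in the treated library (4.18). ATF3, a repressor of the same family, was at 8.03 and 157 TPM, TRIB3, a pseudokinase that restrains ATF4, at 132 and 1339 TPM, and PPP1R15A, which reopens translation by removing the phosphate from eIF2α, at 110.5 and 1055 TPM. ADM2, a secreted peptide, was at 2.44 and 107 TPM. The hormone FGF21 (1 and 1.07 TPM) was close to the floor, and EIF4EBP1 (246 and 294 TPM) was within 2-fold.

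The sensors upstream differed from one another. EIF2AK3, the PERK kinase of the ER, was at 9.42 TPM in the control and 46.0 TPM in the treated library (2.17), and ERN1, which encodes IRE1, at 2.46 and 12.6 TPM (1.98). EIF2AK4, the GCN2 kinase that senses missing amino acids, was at 47.6 and 19.9 TPM (-1.22), and the kinases EIF2AK1 and EIF2AK2 lay at -0.20 and -0.18. ATF4 itself was at 472 and 1394 TPM, and XBP1, whose mRNA IRE1 splices, at 136 and 434 TPM. In all, 5 of 15 sensors and transducers were upregulated and 1 downregulated.

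The ER program was broad. Of 29 chaperones and folding enzymes 23 were upregulated and 0 downregulated, median 1.29. DNAJB9, a cochaperone that restrains IRE1, was at 10.6 TPM in the control and 185 TPM in the treated library, MANF, a secreted ER protein, at 156 and 877 TPM, and HYOU1, an ER nucleotide exchange factor, at 117 and 636 TPM. ER-associated degradation had 11 of 23 upregulated: HERPUD1, a scaffold of the export complex, was at 64.4 and 1007 TPM, and SYVN1, its ubiquitin ligase, at 31.3 and 154 TPM. Translocation, glycosylation and vesicle coat genes had 28 of 54 upregulated, among them the channel gene SEC61A1 (263 and 993 TPM), the coat gene SEC24D (26.1 and 177 TPM) and the retrieval receptor KDELR3 (19.6 and 114 TPM). None of the 3 lists had a member downregulated more than 2-fold.

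The list of heat shock chaperones outside the ER had 3 of 23 upregulated, 1 downregulated and a median of 0.07. HSPA1A was at 347 and 1326 TPM and its near-identical copy HSPA1B at 93.3 and 320.0 TPM, between which reads could have been split. HSPB1, a small heat shock protein, was at 822 and 1833 TPM. HSPH1 (129 and 103 TPM) and HSP90AA1 (1693 and 1524 TPM) lay within 2-fold, and the member downregulated was HSPE1, the mitochondrial cochaperonin, at 584 and 204 TPM. HSPA6, given above among the highest fold changes, is not in the list.

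Amino acid genes were divided by function. Of 20 cytosolic tRNA synthetases 6 were upregulated, led by WARS1 for tryptophan (137 and 812 TPM) and GARS1 for glycine (178 and 665 TPM), while FARSB, a phenylalanine synthetase subunit, was downregulated (82.1 and 20.4 TPM). Of 17 mitochondrial synthetases 0 were upregulated and 5 downregulated, median -0.83. Enzymes of serine, glycine, asparagine and folate metabolism had 11 of 20 upregulated. ASNS, asparagine synthetase, was at 64.2 and 419 TPM, and CTH, which makes cysteine, at 6.64 and 71.8 TPM. Within folate metabolism the mitochondrial enzymes SHMT2 (205 and 566 TPM) and MTHFD2 (199 and 549.6 TPM) were higher, whereas their cytosolic counterparts SHMT1 (71.1 and 9.80 TPM) and MTHFD1 (190.1 and 24.8 TPM) were lower. PHGDH, which starts serine synthesis, differed little (176 and 182 TPM). Of 17 amino acid transporters 7 were upregulated, with the cystine importer SLC7A11 at 21.9 and 156 TPM and the glycine transporter SLC6A9 at 8.35 and 102 TPM.

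Antioxidant genes driven by NRF2 had 17 of 35 upregulated and 0 downregulated, median 0.80. HMOX1, which breaks down heme, was at 17.8 TPM in the control and 339 TPM in the treated library (4.18), GCLM, a subunit of the enzyme that starts glutathione synthesis, at 31.3 and 112 TPM, and SRXN1, which repairs peroxiredoxins, at 54.3 and 269.8 TPM. The common reporter NQO1 was within 2-fold (564 and 810.4 TPM), as was NFE2L2, which encodes NRF2 (92.0 and 114 TPM). Against the gain in ferritin, the transferrin receptor TFRC, which brings iron in, was at 187 and 52.2 TPM (-1.82), and the iron exporter SLC40A1 at 5.32 and 7.36 TPM. Of 6 metallothionein and zinc genes above the floor 4 were upregulated, including MT1X (237 and 1170.0 TPM) and MT1F (9.84 and 219.7 TPM), whose sequences are close to each other. SLC30A1, a zinc exporter, was at 17.0 and 42.6 TPM, and the importer SLC39A10 at 13.5 and 1.17 TPM.

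Autophagy had 12 of 26 genes upregulated and 0 downregulated, median 0.80, but the gains were uneven along the pathway. MAP1LC3B, the ATG8 protein that coats autophagosomes, was at 50.3 TPM in the control and 872 TPM in the treated library (4.09), its relative GABARAPL1 at 25.6 and 267 TPM, and WIPI1, which marks the forming membrane, at 15.2 and 248 TPM. The entry MAP1LC3B2, a near-identical copy, was at 7.26 and 101 TPM. The starter kinase ULK1 was at 10.9 and 83.5 TPM. By contrast the conjugation enzymes ATG3 (-0.21) and ATG7 (0.07) and the scaffold ATG16L1 (-0.32) were near 0. Lysosomal genes as a group had a median of -0.01, with 7 of 45 upregulated and 5 downregulated. Cathepsins went both ways: CTSL was at 212 and 765 TPM, CTSD at 425 and 948 TPM, CTSH at 631 and 93.5 TPM and CTSC at 72.4 and 10.2 TPM.

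Immediate-early transcription factors had 12 of 22 members upregulated and 1 downregulated, median 1.46. JUN was at 65.8 and 378 TPM, FOS at 2.76 and 17.4 TPM and KLF4, a factor of epithelial differentiation, at 33.8 and 173 TPM. MYC (139 and 156 TPM) and FOSL1 (229 and 308 TPM) were within 2-fold. Feedback and output genes of the MAPK pathway were mixed, 7 of 19 upregulated and 2 downregulated: DUSP1, a phosphatase that also answers to stress kinases, was at 21.9 and 231 TPM, DUSP5, specific for ERK, at 97.8 and 429.6 TPM, and DUSP6, also specific for ERK, at 26.7 and 43.0 TPM. Ligands and receptors of the EGF family differed. AREG, HBEGF, EREG, EPGN and BTC were all upregulated, with AREG at 397 and 1995 TPM and HBEGF at 74.9 and 559.7 TPM, whereas the ligand TGFA was at 80.8 and 59.9 TPM. The receptors EGFR (66.3 and 37.4 TPM), ERBB2 (56.3 and 31.4 TPM) and ERBB3 (21.9 and 15.5 TPM) had lower values within 2-fold.

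Targets of YAP and TEAD, which answer to cell contact and tension, had 9 of 17 downregulated and 0 upregulated, median -1.33. CCN1, a matricellular target, was at 222 and 41.4 TPM and AJUBA, an adaptor of cell junctions, at 69.6 and 12.5 TPM. YAP1 itself was at 59.7 and 61.9 TPM, and TEAD1, its DNA-binding partner, at 30.3 and 8.82 TPM. In the TGF-β and BMP list, 6 of 20 were downregulated, among them TGFBI, a matrix protein (651 and 82.6 TPM), and the differentiation inhibitor ID1 (200.4 and 65.9 TPM), while the feedback inhibitor SMAD7 was at 3.89 and 4.84 TPM.

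The target receptor and its pathway were measured in both libraries. RARG, which encodes RARγ, was at 51.1 TPM in the control and 23.5 TPM in the treated library (-1.09), RARA at 33.6 and 18.7 TPM (-0.81), and RARB was at the floor in both. Because the inhibitor acts on the protein, the level of this transcript does not check the treatment. Of the partners, RXRA was at 63.4 and 57.9 TPM and RXRB at 15.3 and 26.9 TPM. Among retinoid carriers, enzymes and targets, 5 of 13 were downregulated and 1 upregulated. ALDH1A3, which makes retinoic acid, was at 627 and 102 TPM, and the carriers FABP5 and CRABP2 at 516 and 149 TPM and at 116 and 42.0 TPM. The classical targets did not move as one. TGM2 was lower by 4.02 on the log2 scale, DHRS3 was at 117 and 62.3 TPM, and STRA6, the retinol importer, was upregulated (4.27 and 26.3 TPM).

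Epithelial genes went both ways. Keratins of the esophageal surface were lower, with KRT13 at 3457 and 358 TPM and its partner KRT4 at 21.8 TPM and the floor, and so was basal KRT5 (1591 and 414 TPM). Of the keratins of stressed and wounded epithelium, KRT17 was the most abundant and within 2-fold (487 and 694 TPM). KRT6A was at 67.1 and 527 TPM, with the near-identical entries KRT6B and KRT6C at 7.80 and 9.04 TPM after treatment, besides KRT16. In all, 5 of 16 keratins were upregulated and 6 downregulated. Of the tight junction genes, CLDN7 was at 277 and 942 TPM and OCLN at 13.7 and 73.1 TPM, whereas the desmosome genes PKP2 (53.9 and 16.9 TPM) and DSG2 (166 and 81.6 TPM) were lower. Of 8 mesenchymal genes above the floor, VIM was at 41.7 and 140.0 TPM and SNAI2 at 46.7 and 18.7 TPM. The ductal factor SOX9 was at 40.0 and 18.6 TPM. The adhesion molecule CEACAM5 was at 1.49 and 25.1 TPM, next to CEACAM6 at 1539.6 and 1804 TPM.

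Genes of cell death passed 2-fold about as often as all entries, of which 12.1% were upregulated and 12.6% downregulated. Of 30 genes of the BCL2 family, caspases and death receptors 5 were upregulated and 3 downregulated, led by BBC3, the death promoter PUMA and a target of CHOP, at 3.39 and 40.5 TPM (3.24). CASP4, an inflammatory caspase, was at 88.1 and 276 TPM and APAF1, the core of the apoptosome, at 11.8 and 3.53 TPM. Interferon-stimulated genes had 5 of 33 upregulated and 7 downregulated, median -0.32. IFIT2 was at 26.2 and 5.93 TPM, but ISG20, an exonuclease, at 4.95 and 114 TPM. MHC class I presentation had 3 of 17 upregulated, of which CALR and PDIA3 are also ER chaperones, and 4 downregulated, median 0.01. NF-κB cytokines and chemokines had 5 of 21 upregulated and 2 downregulated, with CXCL2 at 2.96 and 29.2 TPM and IL1B at 239 and 117 TPM.

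In metabolism, 7 of 23 glycolysis genes were downregulated and 3 upregulated. LDHA was at 1279 and 417 TPM and PKM at 1959 and 898 TPM, against the glucose transporter SLC2A1 at 93.0 and 218 TPM. Hypoxia genes had 8 of 17 upregulated, among them VEGFA (42.6 and 229 TPM) and NDRG1 (34.1 and 544 TPM), which the ATF4 list also holds, while CA12 (3.50 and 4.45 TPM) and ADM (84.3 and 106 TPM) were within 2-fold. Fatty acid and lipid droplet genes had 4 of 25 upregulated and 5 downregulated, median -0.22. Of the synthesis enzymes, SCD was at 173 and 23.5 TPM and FASN at 84.2 and 14.3 TPM, and the lipid droplet protein PLIN2 was at 46.1 TPM in the control and 860.4 TPM in the treated library (4.19). Cholesterol genes had 5 of 28 downregulated, against 12.6% of all entries, and 0 upregulated. Their median was -0.18, with 12 higher and 16 lower values. The xenobiotic list had 2 of 10 downregulated and 0 upregulated, with 5 higher and 5 lower values. The downregulated members were UGT1A6 (46.6 and 13.7 TPM) and CYP24A1 (41.6 and 2.21 TPM). CYP24A1 breaks down vitamin D and is not an enzyme for foreign compounds. CYP1A1 was at 4.73 and 4.40 TPM.

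For orientation, the same lists are given with RARγi-1 in PK-1, which uses the same control library, and with RARγi-2 in Panc-1, which has its own. Doses are not given in the sources used here, so the inhibitors are not compared, and no difference between comparisons was tested. With RARγi-1 in PK-1, 9.25% of 13965 entries were upregulated and 4.96% downregulated, and with RARγi-2 in Panc-1 8.5% and 11.2% of 13921. Mitotic genes had medians of -2.96 here, -1.55 with RARγi-1 and -2.10 in Panc-1. Licensing and fork genes had -2.52, -1.62 and -1.51, and ATF4 and CHOP effectors 2.80, 2.19 and 2.58. Ribosome biogenesis stood at -1.52, -0.79 and -0.27, and mitochondrial tRNA synthetases at -0.83, -0.66 and -0.06. Interferon-stimulated genes stood at -0.32, 0.79 and 0.00. Each of these medians covers the list members above the floor in the PK-1 control or RARγi-2 library. Members at the floor in both Panc-1 libraries count as 0.00, so that value does not show a measured lack of change. As single genes, AGR2 was at 4.66 in PK-1 with RARγi-2, 3.14 with RARγi-1 and -0.64 in Panc-1, and F3 at -4.05, -1.96 and -0.06, but F3 was close to the floor in the Panc-1 control (2.49 TPM), where a fall could hardly be seen.

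**Figure D5:**
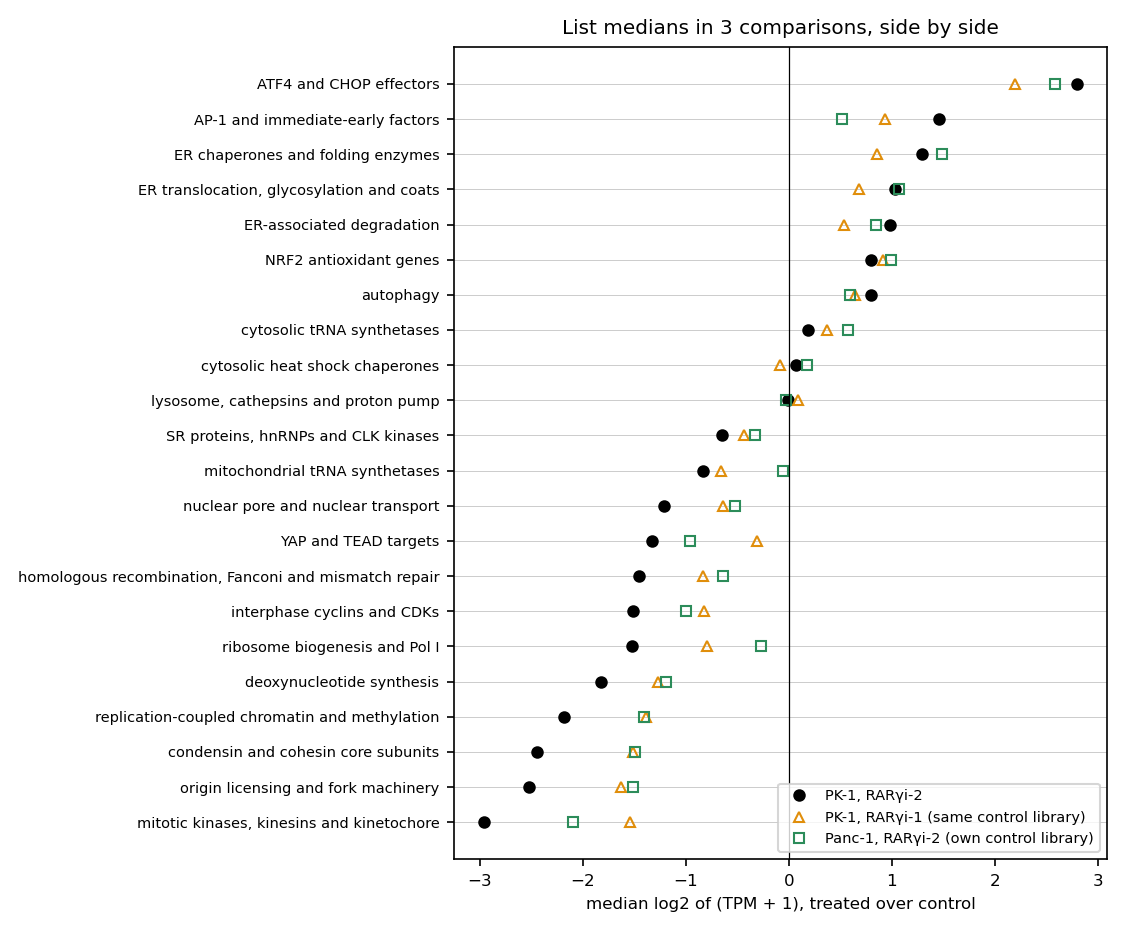
Points give the median log2 fold change of each list for RARγi-2 in PK-1 (black circles), RARγi-1 in PK-1, which shares the control library (orange triangles), and RARγi-2 in Panc-1, which has its own (green squares), with 1 library per condition. Mitotic genes are at -2.96, -1.55 and -2.10, and ribosome biogenesis at -1.52, -0.79 and -0.27. All medians are over the members above the floor in the PK-1 control or RARγi-2 library, including members at the floor in Panc-1.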

How the data were processed

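Total RNA was isolated with Trizol and libraries were made with a stranded mRNA kit, per the labels. The authors deposited 1 file per library with log2 values of TPM, in which everything under 1 TPM had been raised to 1 TPM. The build was hg38 per the submitters' processing notes; aligner, counting method, annotation and use of strand are not given in the sources used here. Antisense entries therefore cannot be separated from their partners, and near-identical copies may share reads.

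The deposited log2 values were put back to TPM, and log2 fold changes were taken with a pseudocount of 1 TPM for entries above the floor in at least 1 of both libraries. Entries past 2-fold were counted, and gene lists were described by counts and medians. No test was run, since there was 1 library per condition. Members and lists were chosen with earlier results of these data known. The spread is 1.4826 times the median absolute deviation between both treated PK-1 libraries; it was divided by the square root of 2 for a single library.

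Genes are named if the paper names them for these conditions or the lists mark them, and otherwise come from the 15 highest and 15 lowest fold changes among entries with at least 10 TPM, the 10 largest gains and losses in TPM, and the 4 largest changes in each list. Other list members were named after their values were seen. Some genes and lists are not reported here. Of entries with the same symbol, that with the highest mean was used. Gene IDs of 99.5% of the members are in RefSeq, which was used for older symbols.

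Motifs were searched on both strands of the 250 bases before the start, and the promoter printed for each is that of the member with a match and the largest change in the first list searched. The shorter antioxidant form, TTTGAA alone and CCAAT were searched besides the forms first planned, and their counts are all given. The calculation was tested on simulated data. Python 3.11.15, NumPy 2.4.6, pandas 2.3.3 and Matplotlib 3.10.9 were used.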

Additional observations from a re-analysis of the deposited data

Results flagged for a closer look

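Among the named genes, 2 were past 2-fold in opposite directions with RARγi-2 in PK-1 and in Panc-1; with 1 library per condition the difference was not tested. COL1A1, a fibrillar collagen chain, was at 3.21 TPM in the PK-1 control and 13.4 TPM after treatment, a log2 fold change of 1.78, and at 52.4 and 2.10 TPM in Panc-1, a log2 fold change of -4.10. FOXA2, a transcription factor of the endoderm, was at 34.1 and 83.2 TPM in PK-1, a log2 fold change of 1.26, and at 54.6 and 24.8 TPM in Panc-1, a log2 fold change of -1.11.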

How the results depend on the processing

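The number of entries past the threshold depended mainly on the threshold. At 3-fold, 672 entries were upregulated and 762 downregulated, and at 1.5-fold 3285 and 3223. Without a pseudocount, with a pseudocount of 0.1 TPM, with at least 5 TPM, without a filter, after rescaling by the median ratio and after summing entries of the same gene ID, both counts stayed within 1.5 times those given. Rescaling without the 9 mitochondrial-copy entries, chosen after seeing the data, gave 1508 upregulated and 2052 downregulated.

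List medians moved by more than the spread of a library in the following cases. With at least 5 TPM, ATF4 and CHOP effectors were at 3.12, the TGF-β and BMP list at -0.81, histone genes at 1.29, antisense entries at 0.60 and LINC entries at 0.70. Without a filter, where genes at the floor in both libraries count as 0, retinoid carriers, keratins, metallothioneins and zinc genes, mucins and surface antigens, immune markers, acinar and endocrine markers and histone genes were at 0.00, amino acid transporters at 0.0031, AP-1 and immediate-early factors at 1.08 and ATF4 and CHOP effectors at 2.40. The acinar and endocrine list, which is PRSS1 alone, was at 4.32 without a pseudocount and 4.20 with 0.1 TPM. No list median past 2-fold and no named gene past 2-fold changed direction under these settings. Of 470 named genes, 7 changed their side of the 2-fold threshold without a pseudocount, 7 with 0.1 TPM and 1 after rescaling by the median ratio.

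No paired analysis was possible because there is 1 library per condition, and there was no replicate to leave out. The depth is unknown, so no counting error can be given, and differences under 1 TPM are hidden by the floor.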

Other observations

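Noncoding and histone entries are set here beside protein-coding genes, of which 12.2% were upregulated and 13.3% downregulated more than 2-fold. Of 183 snoRNA entries, short RNAs that guide the modification of other RNAs, 52 were downregulated more than 2-fold and 5 upregulated, with a median log2 fold change of -0.63, although an mRNA library is not made for RNAs of this size. Of 1064 lncRNA entries 153 (14.4%) were upregulated and 46 (4.32%) downregulated, median 0.22. Weak entries pass the threshold less often. Of all entries that reached more than 2 and up to 5 TPM, 8.23% were upregulated and 6.48% downregulated. Of 51 histone entries above the floor 22 were upregulated and 3 downregulated, median 0.76, while their summed share was 0.306% of the control library and 0.295% of the treated library. HIST2H2BE was at 5.79 TPM in the control and 44.9 TPM in the treated library and HIST2H2AA3 at 13.3 and 85.2 TPM. The histone entries were weak, with a median of 3.89 TPM in the control and 8.22 TPM in the treated library. Histone transcripts without a poly(A) tail may be missed by an mRNA library, so these values may not show total histone expression. Copies of histone genes are also close in sequence, and reads may be split among them.

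Of 377 zinc finger (ZNF) genes above the floor 28 were upregulated and 11 downregulated, with a median of 0.23. Of the antisense entries, which had a median of 2.21 TPM in the control, 49 of 341 were upregulated and 10 downregulated. UNC5B-AS1 was at 3.24 and 129 TPM, and PCNA-AS1, which lies opposite PCNA, at 116 and 11.2 TPM, where reads of both strands cannot be told apart. Among LINC entries, with a median of 2.05 TPM in the control, 35 of 203 were upregulated and 9 downregulated. The growth arrest transcript GAS5 was at 321 and 853 TPM, and NEAT1, the scaffold of paraspeckles, at 16.5 and 67.3 TPM.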
